A study of Homo sapiens with 24 samples.

Results

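The mitosis genes are 36 genes that drive cells from G2 through division, chosen by name as regulators of the G2 to M transition, kinesins, and genes of the centromere and the spindle checkpoint. They were found by symbol in 36 of the 60671 genes that each of the 2 count tables lists. Their transcripts were followed in 24 libraries of polyadenylated RNA from H1 and H9, established lines of human embryonic stem cells, in 8 groups of 3. All 18 H1 libraries, controls included, carry doxycycline in their labels. They comprise primed H1 cells with CARHSP1 knocked down and their nontargeting control, naive H1 cells with ZNF8 knocked down and their nontargeting control, and H1 cells at day 2 of differentiation to ectoderm with ZIC2 knocked down and their nontargeting control. The 6 H9 libraries come from primed and from naive cells, with no knockdown or treatment in the labels. Primed cells resemble the epiblast after implantation, and naive cells the epiblast before it. The labels name 1 culture medium, StemFlex, for all samples and none for naive culture or ectoderm, and they give neither the way the knockdowns were made nor the number of clones. Nothing in them tells whether the 3 libraries per group came from separate cultures. P-values therefore reflect only how these libraries vary, and that variation could be technical.

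Cells that have copied their DNA enter mitosis when CDK1 binds cyclin B. Aurora and Polo kinases then build a bipolar spindle out of microtubules and kinesin motors, kinetochores couple the spindle to centromeres, and the spindle checkpoint holds the anaphase promoting complex back until every chromosome is attached. Most of these genes are transcribed in waves, silent in G1 and high in G2 and M. Their promoters are known targets of the DREAM complex, which represses them in resting cells and after p53 induces p21, and of B-MYB and FOXM1, which activate them late in the cycle. The cell cycle genes homology region (CHR) and CCAAT boxes are the elements through which much of this control is known to run. Human pluripotent stem cells divide fast, with a short G1 phase.

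Those letters were searched in RefSeq promoters (GRCh38.p14), from 250 bases before to 50 after the start, of which 31 members had one. Of 35116 such windows only the first listed for each gene was kept, so other starts were not searched. The CHR letters TTTGAA or TTCGAA, on either strand, occurred in 24 of 31 (77.4%), against 16.6% of all 27305 promoters. CCAAT, also on either strand, occurred in 24 of 31 (77.4%) against 35.7%. CCAAT was as common in other lists, in 12 of 17 S phase promoters, 7 of 8 of quiescence and p53 target genes and 6 of 7 of other mitotic kinesins. CHR occurred in 7 of those 7 kinesins, 2 of the 17 S phase promoters and 1 of the 8. Both stood together in 20 of 31 (64.5%), against 6.58% of all promoters. The E2F letters TTTCCCGC or TTTGGCGC, typical of S phase promoters, occurred in 2 of 31 (6.45%) against 2.31% of all, whereas 11 of 17 promoters of the S phase list held them. A match is a description of letters, not of a bound site. Of the tested members that had a promoter, PTTG1, CCNB1, CDC25C, CENPE, KIF2C, KIF20A and AURKB held no CHR letters in the window searched. CENPE, KIF2C and CDC25C held neither set of letters there. Other starts and other forms of these elements were not searched, so this does not show that the genes lack them. The 200 bases before the start are shown for 6 members on which the results turn, with CHR and CCAAT letters of either strand in capitals. TOP2A and HMMR moved in most comparisons, BUB1 rose most in ectoderm, CENPA and PTTG1 sat at opposite ends of the naive comparison, and PLK1 moved against the others in the ZIC2 knockdown.
TOP2A (chr17:40417897-40418096, minus strand): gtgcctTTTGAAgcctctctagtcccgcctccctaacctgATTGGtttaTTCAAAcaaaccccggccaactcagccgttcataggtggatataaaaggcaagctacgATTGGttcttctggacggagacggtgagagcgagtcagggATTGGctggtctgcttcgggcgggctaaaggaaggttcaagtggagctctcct
HMMR (chr5:163460432-163460631, plus strand): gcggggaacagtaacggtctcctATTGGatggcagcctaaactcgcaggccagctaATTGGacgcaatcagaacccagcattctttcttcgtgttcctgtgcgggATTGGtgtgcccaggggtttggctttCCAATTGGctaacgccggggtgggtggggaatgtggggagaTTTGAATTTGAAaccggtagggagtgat
BUB1 (chr2:110678064-110678263, minus strand): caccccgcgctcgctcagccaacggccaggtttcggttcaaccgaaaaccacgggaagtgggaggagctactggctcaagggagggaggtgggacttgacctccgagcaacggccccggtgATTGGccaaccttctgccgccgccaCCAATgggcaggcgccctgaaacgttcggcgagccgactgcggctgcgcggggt
CENPA (chr2:26785856-26786055, plus strand): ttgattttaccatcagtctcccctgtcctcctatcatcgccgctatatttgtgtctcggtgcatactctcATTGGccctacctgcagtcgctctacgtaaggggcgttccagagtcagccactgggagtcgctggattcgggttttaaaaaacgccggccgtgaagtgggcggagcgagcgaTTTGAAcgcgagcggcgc
PTTG1 (chr5:160421655-160421854, plus strand): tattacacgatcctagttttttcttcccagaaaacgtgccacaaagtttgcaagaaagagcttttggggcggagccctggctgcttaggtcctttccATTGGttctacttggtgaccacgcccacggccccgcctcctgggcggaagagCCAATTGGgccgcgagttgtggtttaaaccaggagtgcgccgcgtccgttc
PLK1 (chr16:23678689-23678888, plus strand): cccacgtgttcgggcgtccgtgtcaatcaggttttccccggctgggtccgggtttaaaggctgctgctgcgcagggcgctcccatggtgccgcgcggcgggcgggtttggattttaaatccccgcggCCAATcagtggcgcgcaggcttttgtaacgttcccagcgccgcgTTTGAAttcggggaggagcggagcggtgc
HMMR held a tandem pair of TTTGAA at 28 and 22 bases before its start and 5 CCAAT letters, and PLK1 held TTTGAA at 29 bases and 1 CCAAT at 73 bases before its start. CENPA held TTTGAA at 18 bases before its start, and the CHR letters of BUB1 lay just after its start, outside the stretch shown. PTTG1 held 3 CCAAT letters and no CHR. In HMMR and PTTG1, 2 of the CCAAT matches are the overlapping strands of CCAATTGG. TOP2A held 2 CHR matches farther upstream, at 194 and 151 bases before the start.

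Total counts ran from 6756704 to 20773963 per library. CARHSP1 itself fell from 152 ± 2.44 to 19.5 ± 1.53 CPM (counts scaled to library size with TMM factors; mean ± SD, n = 3 throughout) and ZIC2 from 566 ± 63.1 to 272 ± 4.67. ZNF8 stood at 15.4 ± 1.39 CPM in its knockdown against 19.1 ± 2.85 in its control, and this change missed the threshold (edgeR adjusted p = 0.0664). Throughout, a gene is said to rise or fall where edgeR's quasi-likelihood test gave a Benjamini-Hochberg adjusted p under 0.05 over all genes tested, and changes are log2 ± SE. Each knockdown was tested against its own control of the same state.

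The members took up 0.285% to 0.854% of a library's counts. NUSAP1, a microtubule bundling protein of the spindle, had only 140 counts over all 24 libraries, and 62.2% of its exonic bases are shared on the same strand with the overlapping gene ENSG00000285920, itself at 0 counts. PRC1, which bundles the central spindle, had 1477 counts and shares 57.6% of its exonic bases with ENSG00000284946. The sources used here do not state how reads over shared bases were assigned, so both values are uncertain. NUSAP1 was too low to be tested in any comparison, and 35 of 36 members were tested in each. CDC20, UBE2C and PTTG1 have processed or close copies in the genome that held 485, 380 and 330 counts, against 44601, 35393 and 42949 for the genes themselves.

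Summed over the other 34 members, the level was highest in ectoderm and lowest in naive H1 cells. Primed H1 controls summed to 5892 ± 71.9 CPM and CARHSP1 knockdown cells to 6208 ± 115. Naive H1 controls reached 3334 ± 65.8 and ZNF8 knockdown cells 3134 ± 105. Ectoderm controls reached 8363 ± 63.0 and ZIC2 knockdown cells 7303 ± 244. In H9 the sums were 5958 ± 227 in primed and 5265 ± 51.1 in naive cells, from a table scaled separately. No library of the 3 H1 control groups overlapped another control group. These levels are relative to all polyadenylated RNA of bulk samples, in which fewer dividing cells and less of each transcript per dividing cell cannot be told apart.

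**Figure D1:**
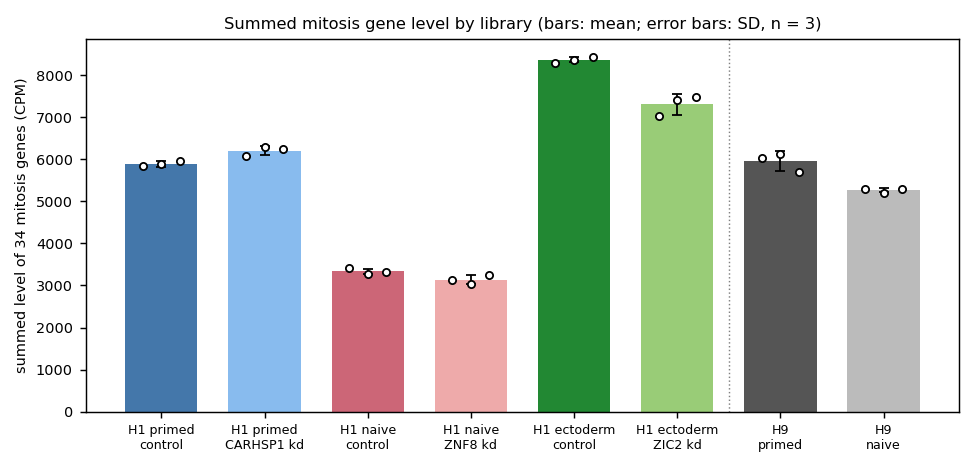
Summed level of 34 mitosis genes (without NUSAP1 and PRC1) in CPM on the y axis for the 8 groups on the x axis; points are libraries, bars means and error bars SD of 3, and H9 to the right of the dotted line was scaled separately. Ectoderm controls stand highest at 8363 and naive H1 cells with ZNF8 knocked down lowest at 3134.

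Per kilobase of transcript, TOP2A, the topoisomerase that untangles sister chromatids, CCNB1, which encodes cyclin B1, and UBE2C, the ubiquitin conjugating enzyme of the anaphase promoting complex, were the members with the highest level over the H1 libraries, and ESPL1 (the protease separase), PRC1 and NUSAP1 the lowest. In primed H1 controls these 3 high members stood close together, CCNB1 at 119 ± 4.96, UBE2C at 115 ± 4.71 and TOP2A at 109.6 ± 2.36 CPM per kb, and these spreads overlap or nearly touch. In naive controls the order was CCNB1 at 72.4 ± 1.89, UBE2C at 66.1 ± 3.86 and TOP2A at 33.4 ± 1.68 CPM per kb. In ectoderm controls TOP2A led with 200.3 ± 3.601 CPM per kb, above CCNB1 at 115 ± 6.55 and UBE2C at 99.8 ± 10.6. CCNB1 and UBE2C thus stayed within a narrower band than TOP2A. ESPL1 ran from 4.56 ± 0.216 CPM per kb in ZNF8 knockdown cells to 8.41 ± 0.844 in primed controls. PRC1 ran from 0.795 ± 0.0306 to 1.35 ± 0.130 CPM per kb over the same groups. NUSAP1 lay between 0.0468 ± 0.04996 and 0.238 ± 0.0982 CPM per kb in every H1 group.

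The members did not move as a block. Over the 6 H1 groups the mean of TOP2A ranged 7.75-fold, from 165 ± 8.61 to 1277 ± 23.0 CPM. PTTG1, the securin that holds separase inactive, ranged 4.75-fold, and the kinetochore protein CENPF 4.27-fold. At the other end, ECT2, the exchange factor that starts the cleavage furrow, ranged 1.54-fold and ANLN, the scaffold of the contractile ring, 1.58-fold. Of the 34 members without NUSAP1 and PRC1, 26 had their highest H1 group mean in ectoderm controls and 23 their lowest in ZNF8 knockdown cells. Only 10 members passed between ZNF8 knockdown and naive control cells. Many of those lowest places were thus near ties of the naive groups, ECT2 (log2 −0.02) and AURKA (−0.05) among them. CENPA, the histone H3 variant of centromeres, and NDC80, the microtubule binding subunit of the outer kinetochore, were instead highest in naive controls.

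**Figure D2:**
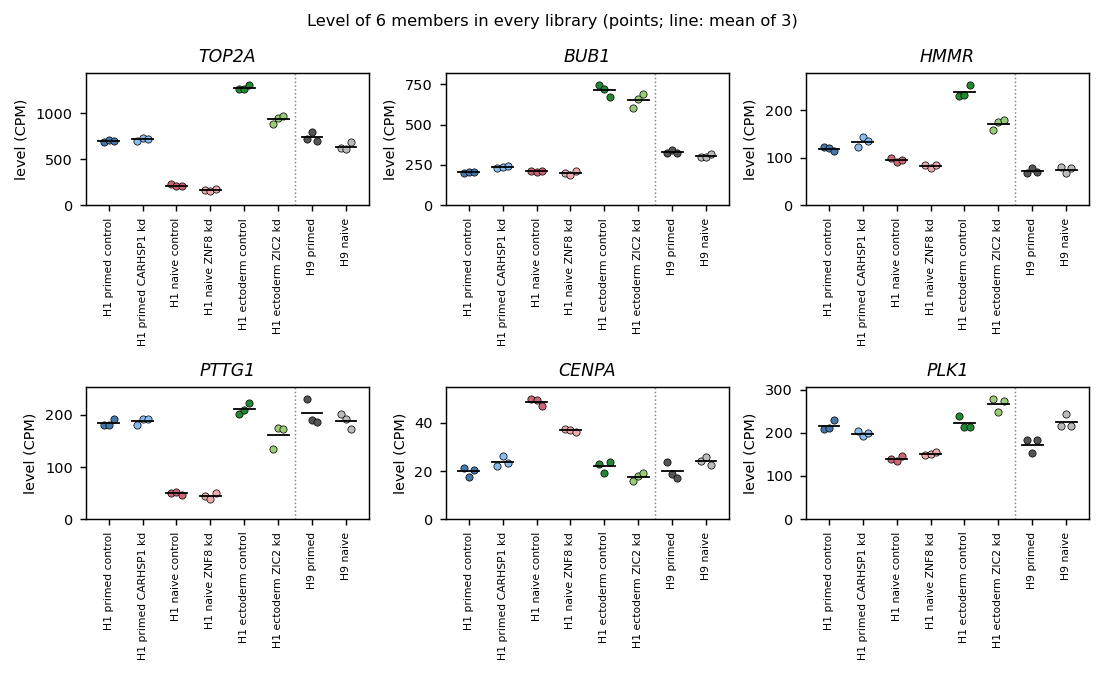
Level in CPM (y axis, from 0) of TOP2A, BUB1, HMMR, PTTG1, CENPA and PLK1 in every library of the 8 groups (x axis); points are libraries, lines are means of 3, and H9 to the right of the dotted line was scaled separately. TOP2A is lowest in naive H1 cells and highest in ectoderm, BUB1 is highest in the 2 ectoderm groups, and CENPA is highest in naive H1 controls.

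With CARHSP1, an RNA binding protein with a cold shock domain, lowered in primed cells, 11 of 35 tested members rose slightly, 0 fell and 24 did not pass, while 10.3% of all tested genes rose and 9.87% fell. The median member change was 0.08, against −0.0022 over all genes. In edgeR's test 4 members were lower at an unadjusted p under 0.05 (PLK1, KIF2C, ESPL1 and MKI67, named after their values were seen), and DESeq2 called 0 lower and 10 higher. The risers were KIF23, DLGAP5, NDC80, AURKA, BUB1, MAD2L1, CDK1, TPX2, HMMR, CCNB2 and ANLN, and no rise exceeded a log2 change of 0.31.

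KIF23, the kinesin of the central spindle, stood at 131, 133 and 136 CPM in the knockdown and at 107, 108 and 107 in the controls (log2 0.31 ± 0.06, adjusted p = 8.97e-05). DLGAP5, which stabilises kinetochore fibres, stood at 340, 355 and 336 CPM against 275, 270 and 294 (log2 0.29 ± 0.05, adjusted p = 1.21e-05). In both genes every knockdown library lay above every control. NDC80 stood at 76.1, 74.5 and 67.5 CPM against 62.4, 62.0 and 60.1 (log2 0.24 ± 0.07, adjusted p = 0.0154). AURKA, the Aurora kinase of centrosomes and spindle poles, stood at 131, 147 and 154 CPM against 125, 117 and 126 (log2 0.23 ± 0.06, adjusted p = 0.00464). Here too the groups did not overlap, though 1 knockdown library of AURKA sat close to the controls. The call of AURKA was lost without knockdown replicate 3 (adjusted p = 0.05002), and that of NDC80 without knockdown replicate 2 or control replicate 3 (0.0699 and 0.0740).

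By role, CDK1, AURKA and CCNB2 rose among 6 genes of mitotic entry, BUB1 and MAD2L1 among 4 of the spindle checkpoint, NDC80 among 5 of the kinetochore, KIF23 among 5 kinesins, TPX2, HMMR and DLGAP5 among 4 tested genes of spindle assembly, and ANLN among 3 of cytokinesis. None of the 4 genes that control the start of anaphase (CDC20, UBE2C, PTTG1 and ESPL1) passed the test, with log2 changes from −0.16 to 0.03. The same held for AURKB and BIRC5 of the passenger complex (−0.09 and 0.07) and for TOP2A and MKI67 on the chromosomes (0.03 and −0.11). PLK1, the Polo kinase, stood at 202 CPM against 221 (log2 −0.13 ± 0.05, adjusted p = 0.0650).

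The CARHSP1 change of a gene went with its GC content (Spearman −0.33 over 15576 genes). The genes come from the same 6 libraries and are not independent, and total counts of those libraries ran from 7317419 to 18813356. The members' median GC was 43.2% against 48.1% over the genes tested. With trends on GC content and length removed, 4 members rose (KIF23, DLGAP5, BUB1 and AURKA), 2 fell (KIF2C and ASPM) and the median was 0.012. The part of base composition in the other 7 rises was not tested further. In 12 alternative settings, KIF23, DLGAP5 and BUB1 were the 3 of 11 risers that passed each time.

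In naive cells under ZNF8 knockdown, 0 of 35 members rose and 10 fell, against 11.9% and 12.3% of all genes. The median change was −0.09. The mRNA of ZNF8, a zinc finger protein, did not itself pass the test, as given above. At an unadjusted p under 0.05, edgeR had 1 member higher (BUB1B, named after its value was seen), and DESeq2 called 0 higher and 9 lower. CDC25C, CENPA, KIF11, TOP2A, NDC80, ESPL1, KIF2C, HMMR, CCNB2 and CENPF fell.

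CDC25C, the phosphatase that activates CDK1, stood at 14.7, 17.0 and 14.6 CPM in the knockdown against 20.2, 20.6 and 20.9 (log2 −0.42 ± 0.12, adjusted p = 0.00927). Without knockdown replicate 1 its adjusted p was 0.0720. CENPA stood at 35.6, 35.5 and 34.9 CPM against 48.0, 47.6 and 45.4 (log2 −0.41 ± 0.08, adjusted p = 0.000275). The CENPA values were tight within each group and clear of each other. KIF11, the kinesin that pushes spindle poles apart, stood at 72.3, 70.9 and 75.8 CPM against 100.3, 89.1 and 96.5 (log2 −0.39 ± 0.07, adjusted p = 2.91e-05). TOP2A stood at 155, 150 and 167 CPM against 216, 202 and 197 (log2 −0.38 ± 0.06, adjusted p = 1.35e-06). All 3 knockdown libraries lay below all 3 controls in these 4 genes.

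Of the 5 kinetochore and centromere members CENPA, NDC80 and CENPF fell. Among the genes of anaphase only ESPL1 fell (49.9 to 38.7 CPM). CDC20 and UBE2C stood at 72.2 and 81.9 CPM in the knockdown against 72.2 and 81.8. None of the 4 checkpoint genes passed the test (log2 −0.18 to 0.12). Of the 10 falls, 7 passed in each of 12 settings, and those of CCNB2, CDC25C and CENPF did not. With GC and length trends removed all 10 falls remained, PRC1 fell as well, CCNB1 and BUB1B rose by 0.12 and 0.14, and the median was −0.091.

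**Figure D3:**
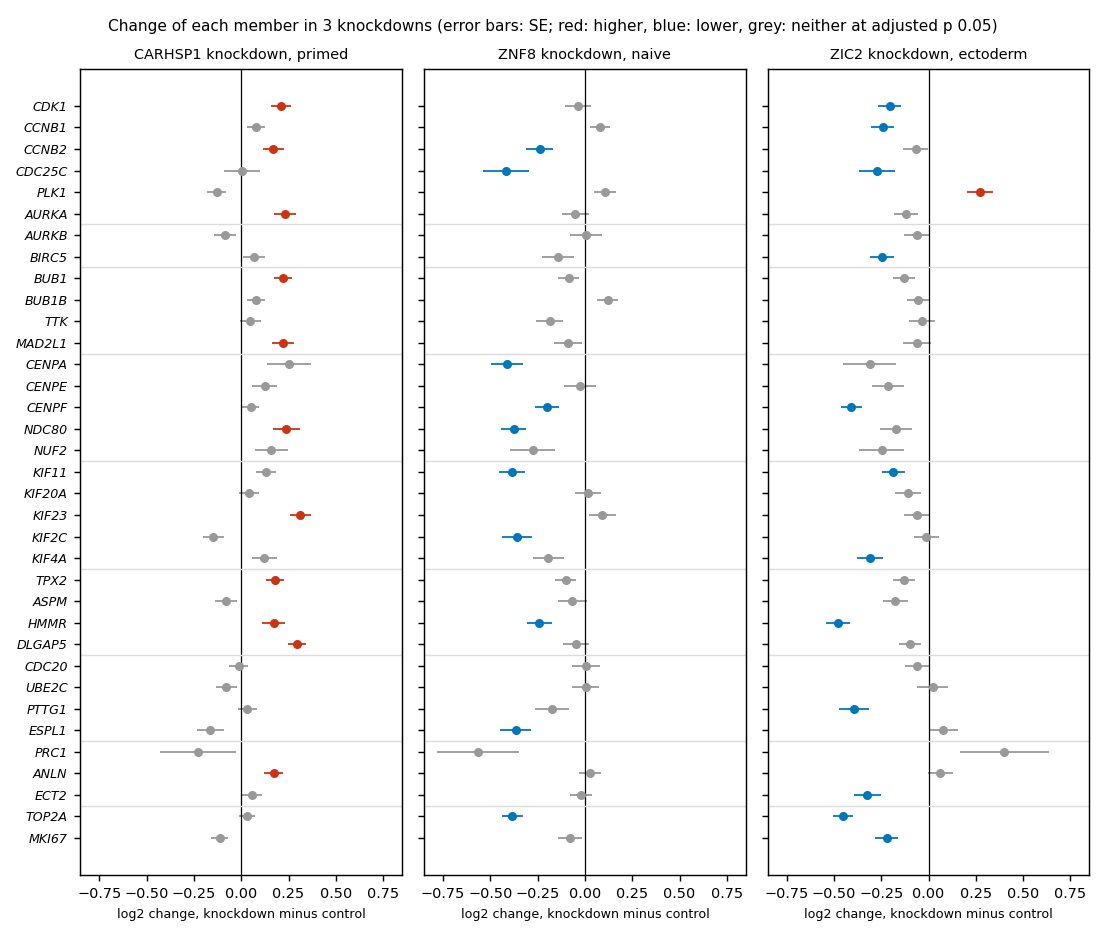
Log2 change, knockdown minus control (x axis), of the 35 tested members (y axis, grouped by role) in the CARHSP1, ZNF8 and ZIC2 knockdowns; points are estimates and bars SE, red for higher, blue for lower and grey for neither at adjusted p 0.05. The coloured points lie right of 0 for CARHSP1 and left of 0 for ZNF8 and ZIC2, except PLK1 under ZIC2 at 0.27.

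Lowering ZIC2, a zinc finger factor of early neural tissue, in ectoderm cells lowered 12 of 35 members and raised 1, against 12.8% and 15.3% of all genes. The median change was −0.13. HMMR, TOP2A, CENPF, PTTG1, ECT2, KIF4A, CDC25C, BIRC5, CCNB1, MKI67, CDK1 and KIF11 fell, and PLK1 rose.

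HMMR, a spindle and centrosome protein, stood at 164, 179 and 183 CPM in the knockdown against 237, 237 and 259 (log2 −0.48 ± 0.07, adjusted p = 8.15e-06). TOP2A stood at 916, 965 and 983 CPM against 1291, 1293 and 1333 (log2 −0.45 ± 0.05, adjusted p = 1.34e-06). Both genes separated the groups by more than the spread within them. CENPF stood at 416, 443 and 422 CPM against 551, 558 and 589 (log2 −0.41 ± 0.06, adjusted p = 1.25e-05). PTTG1 stood at 140, 178 and 177 CPM against 207, 214 and 228 (log2 −0.39 ± 0.08, adjusted p = 0.000702). One PTTG1 library of the knockdown was lower than its 2 fellows, and all 3 were below the controls. PLK1 went the other way, at 288, 252 and 279 CPM against 245, 217 and 218 (log2 0.27 ± 0.07, adjusted p = 0.00435). With GC and length trends removed the rise of PLK1 was 0.16 and no longer passed (adjusted p = 0.0655).

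Both genes of the mitotic chromosome fell, TOP2A and MKI67, the latter the coat protein Ki-67 that marks proliferating cells (424 to 363 CPM). In mitotic entry CDK1, CCNB1 and CDC25C fell and PLK1 rose. None of the 4 checkpoint genes passed (log2 −0.13 to −0.04), and in cytokinesis ECT2 fell from 217 to 174 CPM while ANLN was at 273 against 262 (adjusted p = 0.523). The change of a gene went with its GC content in the direction opposite to the CARHSP1 comparison (Spearman 0.33 over 14960 genes of these 6 libraries). With the trends removed 9 members fell and 1 rose, of which 8 falls were among the 12, and the median was −0.052. Of the 13 calls, 7 passed in each of 12 settings, all of them falls (BIRC5, CENPF, KIF4A, HMMR, PTTG1, ECT2 and TOP2A).

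Across the 3 knockdowns 25 of 35 tested members passed in at least 1, 7 in 2 and HMMR in all 3. Of all genes 10.3% rose and 9.87% fell with CARHSP1 knockdown, 11.9% and 12.3% with ZNF8, and 15.3% and 12.8% with ZIC2. The share of all genes that passed in at least 1, in 2 or in all 3 was not counted, so these overlaps have no background beside them. HMMR, CDC25C, CENPF, KIF11 and TOP2A fell in both the ZNF8 and the ZIC2 knockdown, and HMMR rose in the CARHSP1 knockdown. AURKB, BUB1B, TTK, CENPE, NUF2, KIF20A, ASPM, CDC20, UBE2C and PRC1 were tested and passed in none.

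The differences between knockdowns were tested as contrasts over 4 groups, each knockdown keeping its own control. The CARHSP1 change exceeded the ZNF8 change in 15 members and was below it in 1, against 9.77% and 11.4% of all genes. It exceeded the ZIC2 change in 21 members and was below it in 1, against 12.6% and 15.5%. That difference went with GC content more closely than any other comparison here (Spearman −0.41 over 16238 genes of these 12 libraries). The Spearman value was −0.205 for the CARHSP1 to ZNF8 difference and −0.249 for the ZNF8 to ZIC2 difference. These contrasts were not refitted without GC trends. The medians of the single comparisons without them were 0.012 for CARHSP1, −0.091 for ZNF8 and −0.052 for ZIC2. Between ZNF8 and ZIC2, 2 members differed in 1 direction and 3 in the other, against 6.59% and 10.1% of all genes. PLK1 was the member below in both CARHSP1 contrasts. The cells differ in state between these knockdowns, so the gene targeted and the state cannot be told apart.

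The comparison of naive with primed H1 controls gave the widest shift. Of 35 members 31 fell and 2 rose, against 36.1% and 35% of all genes, and the median change was −0.66, against 0.0024 over all genes. CENPA and NDC80 rose, and BUB1 and PRC1 did not pass. This comparison and those of CARHSP1 and of ectoderm share the 3 primed control libraries, so their values are set side by side and not correlated.

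PTTG1 stood at 50.6, 51.8 and 46.9 CPM in naive cells against 180, 179 and 194 in primed cells (log2 −1.89 ± 0.06, adjusted p = 5.33e-37). BIRC5, which encodes the passenger complex subunit survivin, stood at 44.2, 45.6 and 50.5 CPM against 149, 141 and 169 (log2 −1.72 ± 0.07, adjusted p = 1.9e-32). Both were over 3-fold lower, with tight values in each state. TOP2A stood at 224, 209 and 204 CPM against 684, 711 and 702 (log2 −1.72 ± 0.04, adjusted p = 2.84e-43). MKI67 stood at 124, 118 and 110 CPM against 349, 332 and 351 (log2 −1.55 ± 0.05, adjusted p = 1.96e-37). The 2 genes of the mitotic chromosome and the 2 of the passenger complex (AURKB at 45.0 against 124 CPM) were thus the roles with the lowest medians, at −1.63 and −1.59.

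CENPA stood at 49.8, 49.4 and 47.1 CPM in naive cells against 21.3, 17.6 and 20.7 (log2 1.28 ± 0.10, adjusted p = 6.57e-18). NDC80 stood at 112, 106 and 109 CPM against 61.2, 60.5 and 59.1 (log2 0.86 ± 0.07, adjusted p = 2.67e-18). Every naive library lay above every primed one in both, while their kinetochore neighbours in role CENPE, CENPF and NUF2 fell. CENPA shares 7.0% of its exonic bases on the same strand with SLC35F6, and this share in its rise was not tested. BUB1, the checkpoint kinase, was at 209 against 203 CPM (log2 0.04 ± 0.05, adjusted p = 0.432), although its partner BUB1B fell from 278 to 145 CPM. BUB1B shares 10.2% of its exonic bases on the same strand with BUB1B-PAK6, and the part of these bases in its fall was not tested. All 6 genes of mitotic entry fell by similar amounts, between log2 −0.72 and −0.61, and all 5 kinesins fell, between −1.18 and −0.41. In cytokinesis ANLN and ECT2 fell by small amounts (−0.19 and −0.14) and PRC1 did not pass (−0.21). The call of ECT2 was the 1 of 33 that some settings lost.

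In H9, most members did not pass between naive and primed cells. Of 35 members 11 fell and 2 rose, against 26.1% and 25.4% of all genes, so the share that fell (31.4%) was near that background. The median was −0.09, and −0.005 without primed replicate 1. With GC and length trends removed 16 fell and 3 rose, all 13 calls among them, and the median was −0.12. MKI67 stood at 137, 156 and 168 CPM in naive cells against 252, 364 and 328 in primed cells (log2 −1.03 ± 0.11, adjusted p = 4.11e-07). ASPM, a spindle pole protein named for the microcephaly its loss causes, stood at 57.5, 54.1 and 67.7 CPM against 95.8, 137 and 111 (log2 −0.93 ± 0.12, adjusted p = 2.9e-06). The primed libraries varied widely here, and all still lay above the naive ones. CENPE, the kinesin that gathers chromosomes at the spindle equator, stood at 50.4, 44.0 and 56.0 CPM against 77.5, 102 and 77.8 (log2 −0.77 ± 0.12, adjusted p = 2.43e-05). CDK1 stood at 112, 115 and 114 CPM against 174, 173 and 143 (log2 −0.53 ± 0.09, adjusted p = 9.77e-05). PLK1 rose, at 216, 243 and 216 CPM against 183, 152 and 182 (log2 0.38 ± 0.09, adjusted p = 0.00188). ECT2 rose, at 147, 142 and 159 CPM against 118, 135 and 115 (log2 0.29 ± 0.09, adjusted p = 0.0114), a call lost without primed replicate 3 or naive replicate 3 (adjusted p = 0.0516 and 0.0550).

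Of the 13 calls in H9, 9 passed in each of 11 settings. The falls of TOP2A, DLGAP5 and BIRC5 were lost when certain single libraries were left out. Set side by side, all 11 members that fell in naive H9 cells also fell in naive H1 cells, where 31 of 35 did. PLK1 and ECT2 rose in H9 and fell in H1. PTTG1 was at 189 against 203 CPM in H9 (log2 −0.11, adjusted p = 0.375), CENPA at 24.1 against 19.9 (0.27, adjusted p = 0.110) and NDC80 at 81.2 against 95.1 (−0.23, adjusted p = 0.0785). With GC and length trends removed PTTG1 and NDC80 fell in H9 (−0.27 and −0.30, edgeR adjusted p = 0.0013 and 0.00264), while CENPA was at 0.10 (adjusted p = 0.453). The H1 and H9 tables hold different culture series and were scaled separately, and the difference between the lines was not tested.

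**Figure D4:**
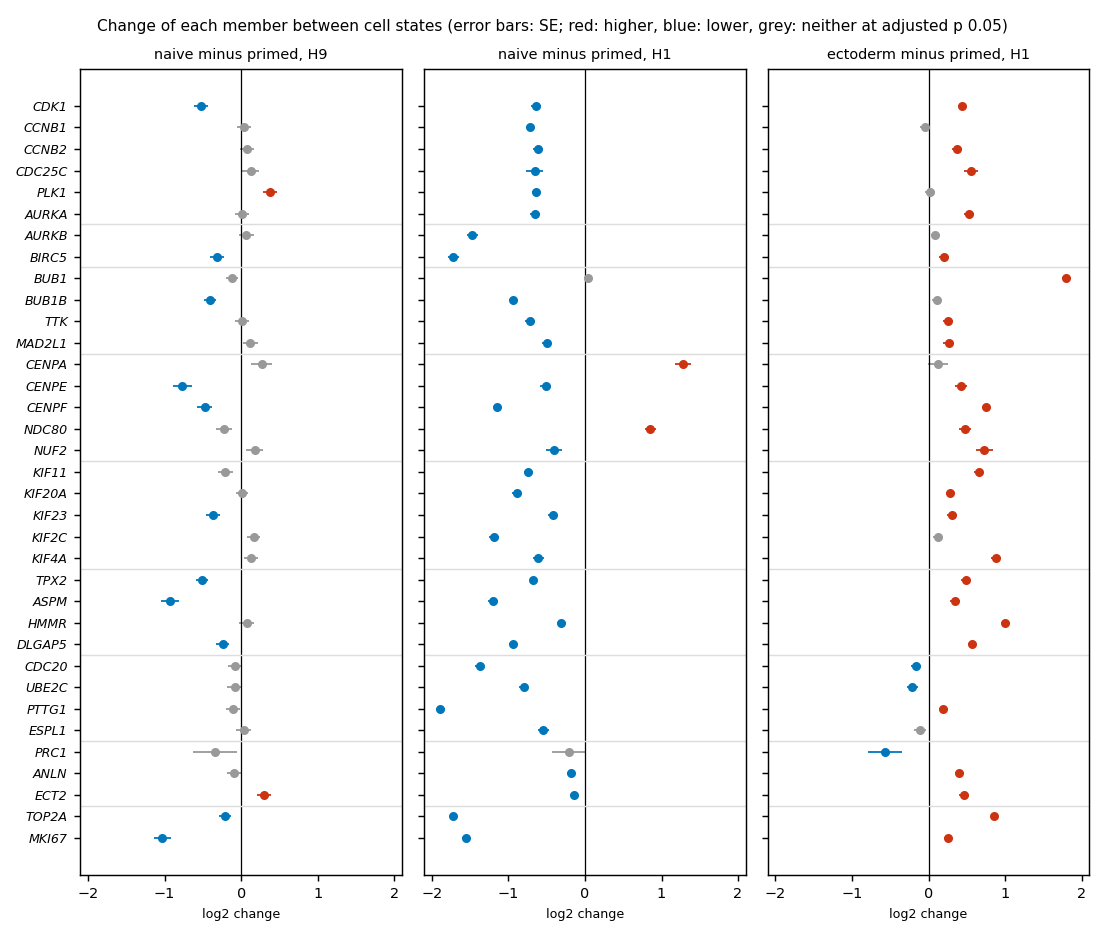
Log2 change (x axis) of the 35 tested members (y axis, grouped by role) for naive minus primed H9, naive minus primed H1 controls and ectoderm minus primed H1 controls; points are estimates and bars SE, coloured as before by the test at adjusted p 0.05. Nearly all H1 points lie left of 0 in naive cells, from −1.89 for PTTG1, with CENPA and NDC80 on the right, while most lie right of 0 in ectoderm, up to 1.80 for BUB1.

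Day 2 ectoderm stood above primed H1 controls. Of 35 members 25 rose and 3 fell, against 30.7% and 32.1% of all genes, and the median change was 0.35. BUB1 stood at 761, 734 and 683 CPM in ectoderm against 206, 208 and 211 in primed cells (log2 1.80 ± 0.06, adjusted p = 1.42e-21). The other checkpoint genes TTK and MAD2L1 rose by 0.25 and 0.26, changes that turned negative with GC and length trends removed. HMMR stood at 236, 237 and 257 CPM against 126, 123.1 and 116 (log2 1.00 ± 0.06, adjusted p = 1.64e-14). KIF4A, a chromosome bound kinesin, stood at 142, 154 and 155 CPM against 80.3, 81.8 and 83.9 (log2 0.88 ± 0.07, adjusted p = 1.83e-12). TOP2A stood at 1288, 1291 and 1326 CPM against 703, 730 and 718 (log2 0.86 ± 0.05, adjusted p = 3.43e-15). In these 4 genes the lowest ectoderm library was well above the highest primed one.

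Of the 4 genes that control the start of anaphase, 2 fell and 1 rose. UBE2C stood at 141, 137 and 115 CPM in ectoderm against 145, 151 and 157 (log2 −0.21 ± 0.07, adjusted p = 0.00944), lost without ectoderm replicate 3 or primed replicate 3 (0.120 and 0.0705). CDC20, which activates the anaphase promoting complex, stood at 180, 184 and 167 CPM against 200.1, 192 and 202 (log2 −0.16 ± 0.06, adjusted p = 0.0177). Both falls were small and the groups did not overlap. The fall of CDC20 was lost without ectoderm replicate 3 or primed replicate 1 or 3 (0.0646 to 0.0905), and its change was 0.12 with GC and length trends removed. PRC1, at the low counts given above, stood at 4.71, 5.28 and 5.40 CPM against 8.47, 7.49 and 6.99 (log2 −0.57 ± 0.22, adjusted p = 0.0288), lost with DESeq2 (0.0925) and without ectoderm replicate 1 or 2 or primed replicate 1 (0.0555 to 0.127). PTTG1 rose by 0.19 and ESPL1 was at 71.2 against 76.7 CPM (adjusted p = 0.219).

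In this comparison too the change went with GC content (Spearman −0.35 over 15346 genes of these 6 libraries). With the trends removed 19 members rose and 4 fell, with a median of 0.15. Then 17 of the 25 rises remained, BUB1 at 1.58, HMMR at 0.66, KIF4A at 0.72 and TOP2A at 0.57 among them. PLK1 and AURKB now rose, by 0.16 and 0.23, and CCNB1 and BUB1B now fell, by 0.23 and 0.14 on the log2 scale. TTK and MAD2L1 were at −0.07 and −0.05 and no longer passed (adjusted p = 0.356 and 0.588). Of all 28 calls, 17 passed in each of 12 settings.

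Genes that work with the members moved in part with them. The counts of these related lists were not repeated with GC and length trends removed. In the CARHSP1, ZIC2 and ectoderm comparisons the change of a gene went with its GC content (Spearman −0.33, 0.33 and −0.35). In the CARHSP1 knockdown 5 of 24 other kinetochore and passenger genes rose and 0 fell (10.3% and 9.87% of all genes), including the inner kinetochore proteins CENPH (70.9 to 91.3 CPM) and CENPW (31.3 to 41.4). In the S phase list 6 of 20 rose and 2 fell there, among them the sliding clamp PCNA (240 to 302 CPM, log2 0.33) and the ribonucleotide reductase subunit RRM2 (195 to 242). In the ZNF8 knockdown 12 of 20 S phase genes fell and 0 rose (12.3% and 11.9% of all genes), with the helicase subunit MCM6 at 279 against 355 CPM and PCNA at 143 against 188. Condensin and cohesin had 6 of 19 lower and 0 higher there. In the ZIC2 knockdown 7 of 20 S phase genes fell and 1 rose, and 5 of 19 condensin and cohesin genes fell and 0 rose, against 12.8% lower and 15.3% higher of all genes.

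The lists of other G2 and mitotic regulators, of the anaphase promoting complex and of G1 cyclins and E2F factors moved both ways. In the ZNF8 knockdown 1 of 15 rose and 3 fell, 3 of 17 rose and 3 fell, and 1 of 13 rose and 5 fell. There 11.9% of all genes rose and 12.3% fell. In the ZIC2 knockdown the same lists had 2 higher and 4 lower, 2 higher and 1 lower, and 3 higher and 3 lower. Of all genes 15.3% were higher and 12.8% lower there. Among 10 quiescence and p53 target genes 4 rose and 1 fell in the CARHSP1 knockdown, where 10.3% and 9.87% of all genes did. In the ZNF8 knockdown 0 rose and 2 fell, against 11.9% and 12.3% of all genes. In the ZIC2 knockdown 5 rose and 2 fell, against 15.3% and 12.8%. CDKN1A, which encodes the CDK inhibitor p21, rose from 9.73 ± 1.4 to 63.6 ± 4.2 CPM in the ZIC2 knockdown (log2 2.71) and from 11.2 ± 1.0 to 16.4 ± 1.6 in the ZNF8 knockdown (log2 0.54). It also rose in the CARHSP1 knockdown by log2 1.04. The part of CDKN1A in the member changes was not tested in any knockdown. MDM2, which targets p53 for degradation, rose from 49.2 to 106 CPM with ZIC2 lowered, and BTG2, an antiproliferative gene, from 4.56 to 25.0. MDM2 rose from 57.9 to 79.4 CPM with CARHSP1 lowered, and BTG2 from 4.65 to 10.8. Of the regulators of late cycle promoters, MYBL2, which encodes B-MYB, fell from 457 to 362 CPM in the ZNF8 knockdown and rose from 232 to 278 in the ZIC2 knockdown. Summed, the 13 B-MYB, FOXM1 and DREAM regulators stood at 1167 ± 4.81 CPM in the ZNF8 knockdown against 1266 ± 11.3 in its control. In the ZIC2 knockdown the sum was 1160 ± 15.9 CPM against 1156 ± 20.8. PKMYT1, a kinase that inhibits CDK1, rose from 6.69 ± 0.69 to 15.0046 ± 3.28 CPM in the ZIC2 knockdown.

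Between states, FOXM1 fell from 204 ± 12 CPM in primed to 113 ± 5.9 in naive H1 controls, while MYBL2 rose from 306 ± 9.8 to 474 ± 13. CDC25B, a further CDK1 activating phosphatase, rose from 29.9 to 105 CPM there, and the CDK binding protein CKS2 fell from 156 to 53.9. All 7 other mitotic kinesins fell in naive H1 cells, where 36.1% of all genes fell and 35% rose, KIF18B by the most (72.8 to 23.7 CPM), and the condensin subunit NCAPD2 fell from 343 to 94.5. Of the 17 anaphase promoting complex genes 6 rose and 5 fell, near those shares, with ANAPC4 at 167 against 27.7 CPM. In ectoderm 17 of 24 other kinetochore and passenger genes rose and 4 fell, and 14 of 19 condensin and cohesin genes rose and 3 fell (30.7% and 32.1% of all genes), SMC4 from 188 to 359 CPM and SMC3 from 223 to 432. In naive H9 cells 9 of 19 condensin and cohesin genes fell and 0 rose, and 10 of 20 S phase genes fell and 1 rose (26.1% and 25.4% of all genes), and CDKN1A rose from 10.03 ± 0.92 to 28.0 ± 0.48 CPM.

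**Figure D5:**
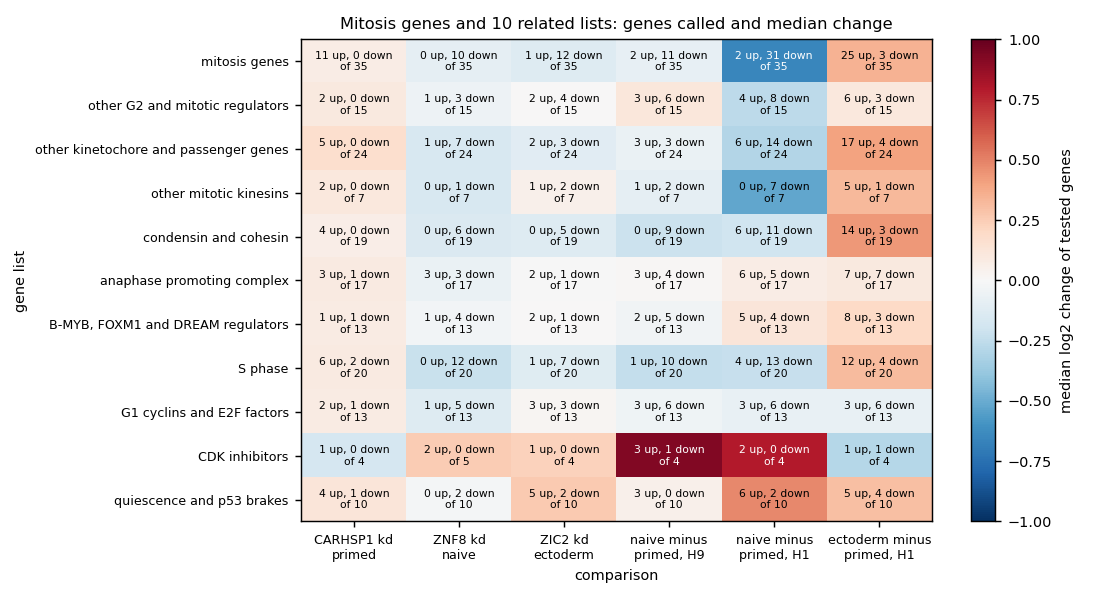
Median log2 change of tested genes (colour) of the mitosis genes and 10 related lists (y axis) in the 6 comparisons (x axis), with the number of genes called higher and lower in each cell. The mitosis genes have the lowest median of the 11 lists in naive H1 cells (−0.66), and the S phase list has the lowest median in the ZNF8 knockdown (−0.22).

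Markers of cell identity moved alongside. Naive H1 controls carried the naive markers KLF17 and DNMT3L at 10.7 and 53.05 CPM, and also MIXL1 at 127, a mesendoderm gene. In naive H9 cells KLF17 was near 0 (0.0693 CPM), DPPA5 was at 29.3 and DNMT3L at 12.9. Ectoderm controls expressed OTX2 (569.9 CPM), SIX3 (195) and LHX5 (112), PAX6 only at 2.28, and LHX2 and SIX6 near 0. In the ZNF8 knockdown all 4 naive markers fell, their sum being 18.1 to 19.8 CPM against 70.3 to 76.3, and 4 of 5 trophoblast and amnion markers fell, their sum being 11.5 to 12.9 against 43.7 to 49.3. In the ZIC2 knockdown GATA3 was at 2.20 CPM against 0 in the controls and GABRP at 4.25 against 0.144, the sum of the 5 markers being 7.23 to 9.19 against 0.144 to 1.74, with HAND1 at 0 in both groups, and OTX2 fell from 572 to 355. The summed level of 6 fibroblast markers moved as well, while LUM and DCN among them stayed at or near 0. It was 389 to 421 CPM in the ZNF8 knockdown against 301 to 311 in its controls, where 3 of 3 tested markers rose. It was 223 to 250.04 CPM in the ZIC2 knockdown against 130 to 146 in ectoderm controls, where 2 of 3 rose, and 238 to 271 CPM in the CARHSP1 knockdown against 276 to 293 in primed controls, where 2 of 4 fell. In ectoderm all 4 tested markers fell from the primed level. In H9 it was 155 to 181 CPM in naive and 266 to 355 in primed cells, with 1 of 3 higher and 2 lower. The part of such shifts in cell makeup in the mitosis gene changes was not tested.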

How the data were processed

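Polyadenylated RNA of 24 libraries (18 of H1, 6 of H9) was sequenced after column purification and stranded library preparation, per the labels' protocols. HISAT2 and GRCh38 are named in the submitters' processing notes, while the counting tool, its strand setting and the annotation release are not stated there or in the labels. The authors deposited whole-number counts per gene, with no normalization, in 2 tables. A further 27 columns match no sample analysed here and were not used. Total counts were 6756704 to 20773963 per library, and replicates differed beyond counting noise (chi-square per degree of freedom 2.44 to 9.16). Counts were scaled by TMM, filtered with filterByExpr and tested with edgeR 4.0.16 (R 4.3.3, limma 3.58.1) by the 2-sided quasi-likelihood F test, each comparison on its own 2 groups, and 3 differences between knockdowns as contrasts over 4 groups. Benjamini-Hochberg adjusted p-values run over all genes tested, with a threshold of 0.05. DESeq2 1.42.0 was an alternative, as were RLE scaling, no low-count filter, all H1 groups in one fit, a replicate block, removal of GC and length trends, and leaving out each library. The scripts were tested on simulated data. In full are given the 4 largest rises and 4 largest falls among called members per comparison, and the 3 highest and 3 lowest members by level per kilobase. Of each related list up to 3 genes with the smallest adjusted p in a comparison are named. The members and lists were chosen with earlier results of these data known. Same-numbered replicates were checked for shared deviations and the numbers were not treated as pairs.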

Additional observations from a re-analysis of the deposited data

Results flagged for a closer look

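These members changed differently in 2 knockdowns by edgeR's test of the difference itself (Benjamini-Hochberg adjusted over all genes, difference in log2 ± SE). The knockdowns were made in different cell states, so the gene targeted and the state cannot be told apart. Between CARHSP1 and ZNF8, 16 members differed, while 9.77% of all genes were higher in this contrast and 11.4% lower. CCNB2 differed by 0.39 ± 0.09 (adjusted p = 0.000743), NDC80 by 0.60 ± 0.10 (7.7e-06) and HMMR by 0.40 ± 0.09 (0.00105). Each was called higher in the CARHSP1 knockdown and lower in the ZNF8 knockdown. The CARHSP1 rises of CCNB2 and HMMR were each lost in 8 of 12 settings and that of NDC80 in 3, among them, for all 3 genes, the removal of GC and length trends (0.07, 0.03 and 0.10). PLK1 differed by −0.25 ± 0.08 (adjusted p = 0.0138), a call lost without primed control replicate 3 (0.0685).

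Between CARHSP1 and ZIC2, 22 members differed, while 12.6% of all genes were higher in this contrast and 15.5% lower. HMMR differed by 0.65 ± 0.09 (adjusted p = 2.53e-06) and CDK1 by 0.41 ± 0.08 (0.00017), both called higher in the one and lower in the other. CDK1 lost both calls with GC and length trends removed (0.07 and −0.05). PLK1 differed by −0.40 ± 0.08 (adjusted p = 0.000584) and was the 1 member with a lower change under CARHSP1.

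Between ZNF8 and ZIC2, 5 members differed, while 6.59% of all genes were higher in this contrast and 10.1% lower. The members thus did not stand out from all genes here. CCNB1 differed by 0.32 ± 0.08 (adjusted p = 0.004) and ESPL1 by −0.44 ± 0.11 (0.00496). KIF2C differed by −0.34 ± 0.10 (adjusted p = 0.0164), lost without the low-count filter (0.0547) and without replicate 3 of either knockdown (0.0545 and 0.0602). ECT2 differed by 0.31 ± 0.09 (adjusted p = 0.0221), lost without any of 5 libraries (0.0594 to 0.0877). PRC1, uncertain for its overlap, differed by −0.96 ± 0.31 (adjusted p = 0.0291), lost without the low-count filter (0.0897) and without any of 5 libraries.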

How the results depend on the processing

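Removing GC and length trends moved the most values. In the CARHSP1 comparison it kept 4 of 11 calls and added 2 falls, 6 calls in all with a median of 0.012, and gave medians of −0.052 for ZIC2, −0.77 in naive H1 cells and 0.15 in ectoderm, and CDC20 in ectoderm turned to 0.12 (adjusted p = 0.0784). It was not run for the differences between knockdowns. Without the low-count filter 3 members differed between ZNF8 and ZIC2. Searching only the 150 bases before the start gave CHR in 51.6% and E2F in 0% of member promoters, against 7.98% and 1.27% of all promoters. The cause of these shifts was not tested.

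Leaving out each library in turn gave counts of called members of 8 to 16 (CARHSP1), 8 to 13 (ZNF8), 10 to 15 (ZIC2), 10 to 15 (H9), 32 to 33 (naive H1) and 25 to 29 (ectoderm), and of 11 to 18, 17 to 22 and 2 to 7 for the CARHSP1 to ZNF8, CARHSP1 to ZIC2 and ZNF8 to ZIC2 differences. The last fell to 2 without ZNF8 knockdown replicate 3 and to 3 without naive control replicate 2. Medians ran from 0.056 to 0.098 (CARHSP1), −0.146 to −0.074 (ZNF8), −0.150 to −0.101 (ZIC2), −0.692 to −0.651 (naive H1) and 0.307 to 0.418 (ectoderm). In H9 they ran from −0.103 to −0.005, the last without primed replicate 1, and −0.011 without naive replicate 3.

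With a replicate block the counts were 15, 10, 15, 13, 33 and 28 for the 6 comparisons in the order above. Same-numbered samples correlated between −0.122 and 0.148 in their deviations. With 3 libraries per group this cannot tell whether same-numbered samples share a batch. DESeq2 gave 10, 9, 12, 13, 32 and 27. Without NUSAP1 and PRC1, chosen after seeing the data, the counts were 11, 10, 13, 13, 33 and 27.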
